A study of Homo sapiens with 9 samples.

Results

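The genes described here encode the nuclear subunits of the mitochondrial respiratory chain, complexes I to IV, and of ATP synthase, called complex V below. They were chosen by symbol: NDUFA, NDUFB, NDUFC, NDUFS or NDUFV with a number, SDHA to SDHD, CYC1, names beginning with UQCR, COX4 to COX8 with a letter, and names beginning with ATP5. Pseudogenes were left out, 2 of which had a probe (UQCRBP1 and ATP5F1EP2). By this rule 82 genes had a probe, and 74 of them were among the 12498 genes tested. The tested genes were 33 of 35 for complex I, 3 of 3 for complex II, 9 of 9 for complex III, 11 of 17 for complex IV and 18 of 18 for complex V. The rule also takes in ATP5IF1, an inhibitor of ATP synthase, and COX7A2L, which is known for joining complexes into supercomplexes. The 13 subunits encoded by mitochondrial DNA were not analysed here.

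RNA was measured on 9 Illumina HumanHT-12 BeadChips in the human line BON-1, established from a neuroendocrine tumour of the pancreas. The cells carried the pLKO.1 lentiviral vector, either as the control vector or with short hairpin RNA (shRNA) 1 or shRNA 2 against RABL6A, the product of the RAB-like GTPase gene RABL6. Each of the 3 groups held 3 arrays. The labels call them separately generated sets without saying whether each was a transduction of its own, so the p-values cover the spread among these samples only. The comparison asks which respiratory genes differ in RNA level after RABL6A knockdown.

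The respiratory chain passes electrons from NADH through complex I, or from succinate through complex II, to ubiquinone, on to complex III, cytochrome c and complex IV, and finally to oxygen. Complexes I, III and IV pump protons out of the mitochondrial matrix, and ATP synthase uses their return to make ATP. Most subunits are encoded in the nucleus, and many are accessory subunits that surround a catalytic core inherited from bacteria. Several complex IV subunits exist as paralogs made in different tissues, such as heart and skeletal muscle or testis.

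All values below are log2 of the background-corrected signal plus an offset of 16, then quantile-normalised. The offset understates the differences of dim genes. A gene was called at a limma Benjamini-Hochberg adjusted p under 0.05, adjusted over all 12498 genes. The mean level of RABL6 itself was 7.70 (SD 0.128) on the 3 vector arrays, 5.74 (SD 0.452) for shRNA 1 and 5.68 (SD 0.00977) for shRNA 2, also 3 arrays each, a log2 difference from vector of -1.99 over both (SE 0.186, limma adjusted p = 0.0014). The neuroendocrine markers with a probe, among them CHGA, CHGB and SYP, were detected on all 9 arrays in 9 of 9 cases. Their median difference was -0.28, and 2 were called in the comparison of all 6 knockdown arrays with vector: SCG5 rose by 1.53 and SLC18A1 fell by 2.06 on the log2 scale. Of 6 fibroblast markers 0 were detected on all 9 arrays, with COL3A1 and LUM on 0. Of 5 leukocyte markers with a probe 3 were detected on all 9 (CD14, LYZ and CD68) and 0 were called, with PTPRC and CD3E detected on 0 arrays. Of 4 endothelial markers KDR was detected on all 9 and called higher, by 1.00, while PECAM1 and CDH5 were detected on 0; the part of these markers in the results was not tested. The median raw signal per array was 119.5 to 128.8, and 41.4% to 44.9% of probes were detected.

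The knockdown arrays did not fall together by their labels. For 66 of 74 respiratory genes (89.2%) the array labelled shRNA 1 replicate 2 lay nearer to the mean of the other-labelled arrays, shRNA 2 replicates 1 and 3, than to that of shRNA 1 replicates 1 and 3. For all genes tested this share was 79.2%. The array labelled shRNA 2 replicate 2 lay nearer to shRNA 1 replicates 1 and 3 in 65 of 74 genes (87.8%), against 80.7% of all genes. RABL6 was low on all 6 knockdown arrays and did not tell the shRNAs apart. Groups follow the labels throughout, and each main result is repeated after dropping both shRNA arrays with the number 2, which leaves 7 arrays. This setting was chosen with the pattern known, and it narrows the spread inside the groups by construction.

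Promoters of 5 genes on which the results below turn are shown, so that genes that rose, fell or divided the knockdown arrays can be read side by side. Each stretch holds 130 bases before and 20 bases from the annotated transcript start on the gene's strand, from RefSeq on GRCh38.p14. They lie at chr12:120437983-120438132 (COX6A1, plus strand), chr5:86617811-86617960 (COX7C, plus strand), chr9:122159760-122159909 (NDUFA8, minus strand), chr11:112086743-112086892 (SDHD, plus strand) and chr19:14572047-14572196 (NDUFB7, minus strand). Capitals mark exact matches, on either strand, to 4 sequences searched for: GCGCAT followed by GCGC for NRF1, which is its own reverse complement, TCAAGGTCA for the oestrogen-related receptors (ERR), CCGGAAG for ETS factors such as GABPA, and AAGATGGC for YY1. No match overlaps another in the stretches shown.
NDUFA8: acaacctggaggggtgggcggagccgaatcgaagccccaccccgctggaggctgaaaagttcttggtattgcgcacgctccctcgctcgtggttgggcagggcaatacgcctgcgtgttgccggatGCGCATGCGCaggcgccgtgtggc
SDHD: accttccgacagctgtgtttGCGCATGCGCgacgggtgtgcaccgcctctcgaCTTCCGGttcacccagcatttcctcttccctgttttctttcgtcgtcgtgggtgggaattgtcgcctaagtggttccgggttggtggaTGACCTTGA
COX7C: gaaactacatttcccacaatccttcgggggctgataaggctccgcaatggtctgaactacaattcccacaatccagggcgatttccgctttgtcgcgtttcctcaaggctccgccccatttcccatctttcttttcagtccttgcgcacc
NDUFB7: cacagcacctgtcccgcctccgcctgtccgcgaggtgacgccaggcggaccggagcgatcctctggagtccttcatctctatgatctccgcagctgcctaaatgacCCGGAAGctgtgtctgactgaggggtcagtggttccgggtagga
COX6A1: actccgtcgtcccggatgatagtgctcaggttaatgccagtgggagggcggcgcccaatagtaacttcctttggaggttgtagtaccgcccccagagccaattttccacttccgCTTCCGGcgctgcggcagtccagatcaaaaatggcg

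Of the tested respiratory genes 61 had an entry in the promoter table, whose windows run from 250 bases before to 50 bases after the start. The NRF1 sequence stood in 3 of 61 windows (4.92%; 1.31% of all 27305), namely those of ATP5F1C, NDUFA8 and SDHD. The ERR sequence stood in 1 (1.64%; 0.352% of all), that of SDHD. The ETS sequence stood in 19 (31.1%; 10.6% of all) and the YY1 sequence in 11 (18%; 3% of all). Among the 9 called genes with an entry, 2 held the NRF1 sequence, 1 the ERR sequence, 4 the ETS sequence and 0 the YY1 sequence. A match describes the letters in the window and is not evidence of a bound site.

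With both shRNAs together against vector, 8 of 74 respiratory genes rose (10.8%) and 2 fell (2.70%). Over all genes tested 8.54% rose and 8.09% fell (16.6% in either direction), so the share that rose was close to the background and the share that fell was below it. The genes that rose were NDUFA8, NDUFS3 and NDUFA1 of complex I, SDHA and SDHD of complex II, COX7C of complex IV, and ATP5MC3 and ATP5F1E of complex V. Those that fell were NDUFB7 of complex I and UQCR10 of complex III. The log2 difference was above 0 for 53 genes and below 0 for 21, with a median of 0.13 beside 0.03 over all genes, but with each array centred on its median in place of quantile normalisation the members' median was -0.01 beside -0.08 over all genes. That scaling left 1 respiratory gene called higher in place of 8, kept 3 of the 10 calls, and split the calls over all genes into 613 higher and 1432 lower, against 1067 and 1011 with quantile normalisation. Genes named below to complete a module or stalk, without being called or at the end of a complex's range, were picked after their values were seen. On 7 arrays 16 rose (21.6%; 20.7% of all genes) and 4 fell (5.41%; 20.5% of all genes; 41.2% in either direction), and all 10 calls of the 9-array fit were among them with the same sign. Without vector replicate 1, 2 or 3, 0 of the 74 genes were called by limma, while 550, 489 and 509 genes were called in all. Without shRNA 1 replicate 1 or shRNA 2 replicate 1, 5 rose, and without shRNA 1 replicate 1 or 3, 1 fell. In all, 1409 genes were called without shRNA 1 replicate 1, 1446 without shRNA 2 replicate 1 and 1847 without shRNA 1 replicate 3.

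**Figure D1:**
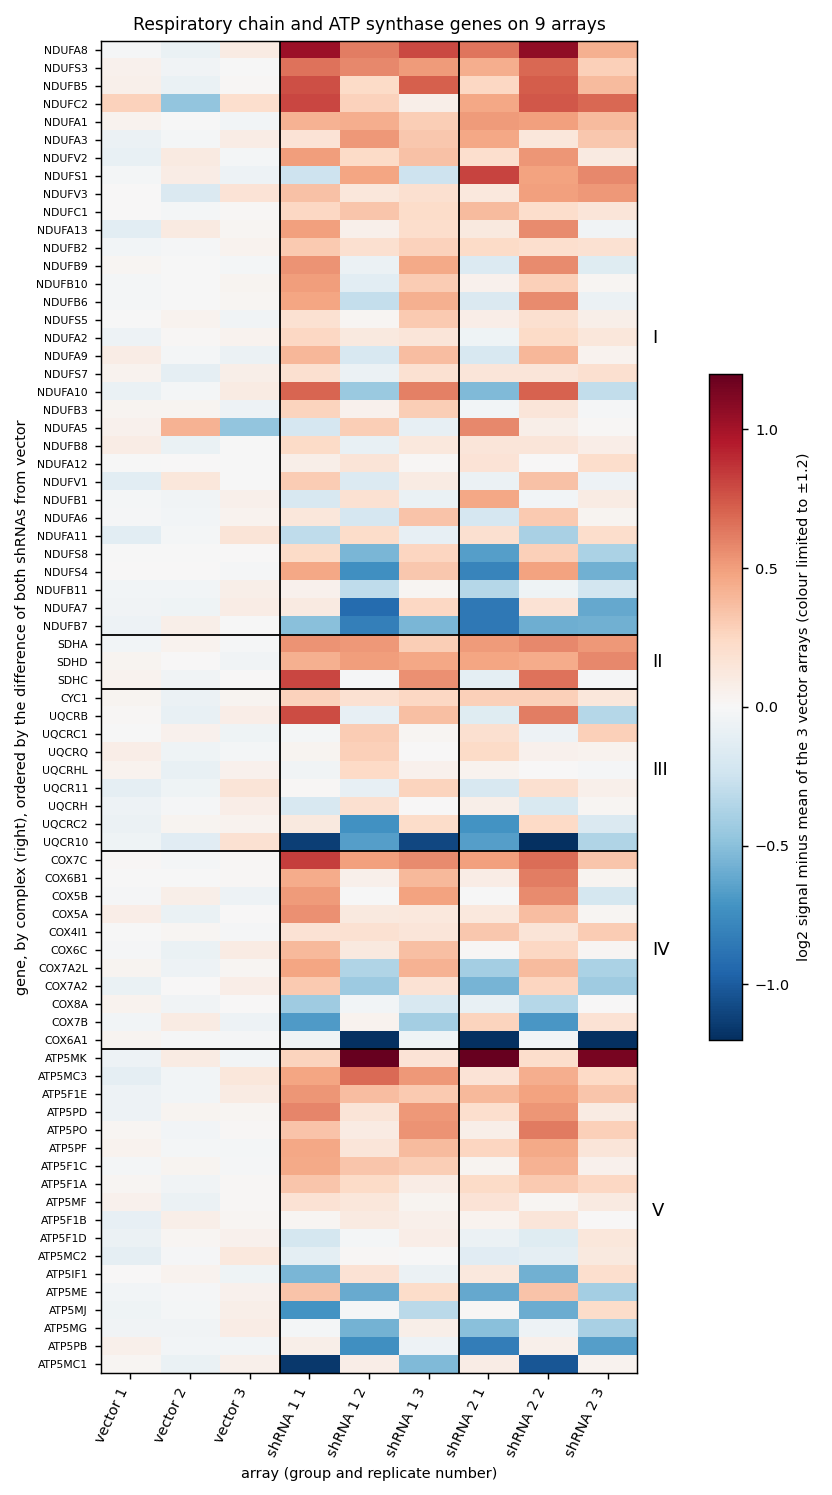
Log2 level minus the vector mean of the 74 respiratory genes (rows, by complex) on the 9 arrays (columns), on a colour scale cut at its ends. Many rows change colour between knockdown arrays, with shRNA 1 replicate 2 like shRNA 2 replicates 1 and 3; COX6A1, the strongest such row, lies at -4.23, -4.34 and -3.54 on these 3 arrays.

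Levels that did not overlap between groups were counted as well. All 6 knockdown arrays lay above all 3 vector arrays for 20 of 74 genes (27.0%), against 15.0% of all genes tested. All 6 lay below for 3 (4.05%), NDUFB7, UQCR10 and COX6A1, against 14.2% of all genes. COX6A1 lay only just below on shRNA 1 replicates 1 and 3 and shRNA 2 replicate 2, at 96.3%, 96.8% and 97.6% of the vector mean. The 20 genes included 7 of complex I, both called genes of complex II, CYC1 of complex III, 3 of complex IV and 7 of complex V. These counts used the quantile-normalised levels of each gene's brightest kept probe and were not repeated with each array centred on its median. That scaling put the members' median difference at -0.01 in place of 0.13. No test was made of these shares, and a bulk RNA level cannot tell a difference in every cell from one in some of the cells.

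**Figure D2:**
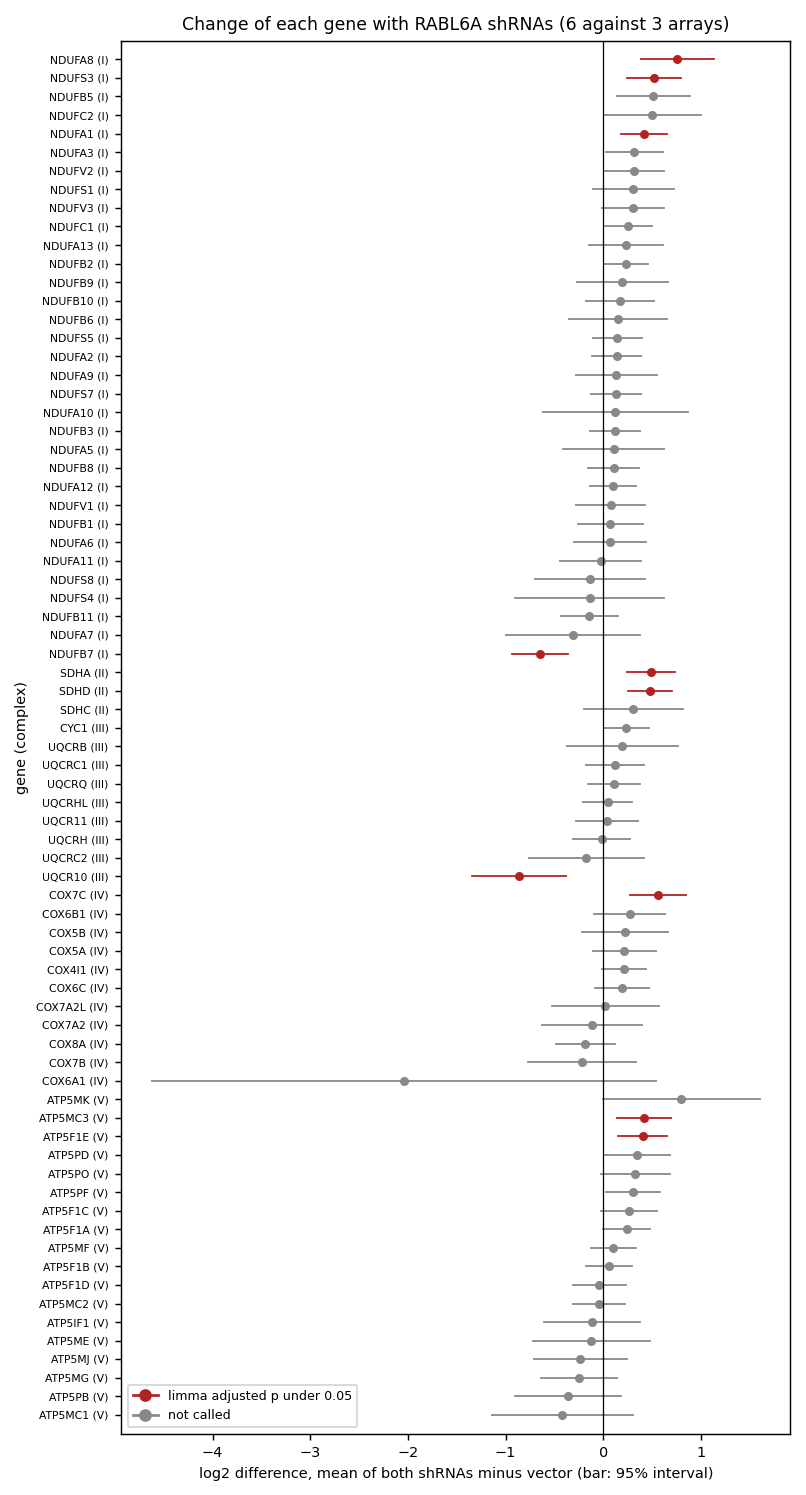
Log2 difference of both shRNAs minus vector for each tested respiratory gene, with 95% intervals from limma on 9 arrays, by complex. Intervals of the 8 genes that rose and the 2 that fell are coloured; COX6A1 has the widest interval, from -4.62 to 0.54.

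In complex I, the NADH dehydrogenase, 3 of 33 tested genes rose (9.09%) and 1 fell (3.03%), with a median difference of 0.14. Over all genes 8.54% rose and 8.09% fell, so the share that rose was near the background. NDUFA8, an accessory subunit imported into the intermembrane space, read 11.42, 11.35 and 11.53 on the vector arrays, 12.46, 12.05 and 12.22 on those of shRNA 1 and 12.07, 12.50 and 11.85 on those of shRNA 2. All 6 knockdown arrays lay above all vector arrays, and the highest were shRNA 1 replicate 1 and shRNA 2 replicate 2. NDUFA8 rose 1.69-fold (log2 difference 0.76, SE 0.165, limma adjusted p = 0.0175), the largest called rise among the respiratory genes, and by 0.72 on 7 arrays. Its promoter holds the NRF1 sequence across the annotated start.

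NDUFS3, a core subunit of the peripheral arm near the iron-sulfur chain, read 11.72, 11.63 and 11.66 on the vector arrays, 12.32, 12.25 and 12.18 on those of shRNA 1 and 12.10, 12.36 and 11.95 on those of shRNA 2. It rose 1.44-fold (log2 difference 0.53, SE 0.122, limma adjusted p = 0.0225), with no overlap between knockdown and vector arrays. NDUFA1, an accessory subunit encoded on the X chromosome and needed for assembly of complex I, read 11.63, 11.58 and 11.55 on the vector arrays, 12.00, 12.02 and 11.88 on those of shRNA 1 and 12.10, 12.08 and 11.96 on those of shRNA 2. The 6 knockdown arrays were close to each other and all above vector, a 1.34-fold rise (log2 difference 0.42, SE 0.103, limma adjusted p = 0.0266).

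NDUFB7, an accessory subunit of the membrane arm on its intermembrane-space side, moved the other way. It read 10.53, 10.65 and 10.58 on the vector arrays, 10.09, 9.77 and 10.04 on those of shRNA 1 and 9.73, 10.00 and 10.01 on those of shRNA 2. Every knockdown array was below every vector array, at 63.8% of the vector level on average (log2 difference -0.65, SE 0.126, limma adjusted p = 0.0125). Of the 74 respiratory genes it had the smallest adjusted p. The other complex I genes lay between -0.31 (NDUFA7) and 0.51 (NDUFB5, adjusted p = 0.0669; 0.53 and called on 7 arrays). The genes of the flavin-binding module that accepts electrons from NADH, NDUFV1, NDUFV2 and NDUFV3, differed by 0.08, 0.32 and 0.30 and did not pass the test. NDUFS1, a core iron-sulfur subunit, was dim and was detected on 3 vector, 2 shRNA 1 and 3 shRNA 2 arrays. Every other tested respiratory gene was detected on all 9. NDUFS1 read 5.21, 5.32 and 5.17 on the vector arrays, 4.99, 5.71 and 4.98 on those of shRNA 1 and 6.04, 5.71 and 5.80 on those of shRNA 2. Its difference was 0.31 with both shRNAs (limma adjusted p = 0.286). Between shRNA 2 and shRNA 1 it was 0.63 (SE 0.211, limma adjusted p = 0.988). NDUFB4 was detected on 1 array and NDUFS6 on 0, and neither was tested.

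Complex II, succinate dehydrogenase, oxidises succinate in the citric acid cycle and contains no subunit from mitochondrial DNA. SDHB, also named by the rule, was not among the 82 genes with a probe, so the complex is covered only in part. Its 3 tested genes all lay above 0, with a median of 0.48, and 2 were called. That is too few genes to set against the 8.54% of all genes that rose and the 8.09% that fell. SDHA, the flavoprotein with the succinate site, read 10.77, 10.85 and 10.79 on the vector arrays, 11.34, 11.33 and 11.10 on those of shRNA 1 and 11.32, 11.38 and 11.32 on those of shRNA 2. SDHD, a membrane anchor, read 9.99, 9.96 and 9.92 on the vector arrays, 10.39, 10.46 and 10.42 on those of shRNA 1 and 10.43, 10.40 and 10.53 on those of shRNA 2. Neither gene overlapped between knockdown and vector. SDHD spanned 0.147 over the 6 knockdown arrays and 0.0741 over the 3 vector arrays, ranges over unlike numbers of arrays.

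SDHA rose 1.41-fold (log2 difference 0.49, SE 0.107, limma adjusted p = 0.0177) and SDHD 1.39-fold (0.48, SE 0.0996, adjusted p = 0.0154). SDHA has near-identical pseudogenes in the genome, whose transcripts its probe may also read, and its second kept probe gave 0.42 without a call in the fit of all kept probes (limma adjusted p = 0.0697). SDHC, the other membrane anchor, differed by 0.31 (SE 0.222, adjusted p = 0.373) and its arrays were split. It read 10.58, 10.49 and 10.54 on the vector arrays, 11.34, 10.53 and 11.09 on those of shRNA 1 and 10.43, 11.19 and 10.53 on those of shRNA 2. Its second kept probe gave -0.25, so SDHC has no settled direction. The median of the complex II genes above the vector mean was 0.46 to 0.58 on each of the 6 knockdown arrays, shRNA arrays numbered 2 included. Their mean, in which SDHC counts, was lowest on shRNA 1 replicate 2 (0.34) and shRNA 2 replicates 1 and 3 (0.29 and 0.36).

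In complex III, the cytochrome bc1 complex, 0 of 9 genes rose and 1 fell (11.1%), with a median of 0.05, beside 8.54% and 8.09% of all genes. UQCR10, a small accessory subunit, read 9.02, 8.93 and 9.25 on the vector arrays, 7.93, 8.40 and 7.98 on those of shRNA 1 and 8.40, 7.80 and 8.70 on those of shRNA 2. All knockdown arrays were below all vector arrays, at 55.0% of the vector level (log2 difference -0.86, SE 0.210, limma adjusted p = 0.0264). These values are of its brightest probe. Its other 2 kept probes gave -0.40 and -0.44 and were not called when all 22011 kept probes were fitted (limma adjusted p = 0.140 and 0.129), and the first of them overlapped, with 8.25 on shRNA 1 replicate 1 and 8.18 on vector replicate 2. CYC1, the cytochrome c1 subunit that hands electrons to cytochrome c, was the highest of the complex at 0.24 (SE 0.103, adjusted p = 0.150), and its 6 knockdown arrays lay above vector. The core proteins UQCRC1 and UQCRC2 differed by 0.12 and -0.17 and did not pass. UQCRH and its near-identical copy UQCRHL, whose probes may read each other's transcripts, differed by -0.02 and 0.05. UQCRB differed by 0.20 by its brightest probe, while its other 2 kept probes gave 0.49 and 1.40, the last with an adjusted p of 0.0342 when all 22011 kept probes were fitted.

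In complex IV, cytochrome c oxidase, 1 of 11 tested genes rose (9.09%) and 0 fell, with a median of 0.19, beside 8.54% and 8.09% of all genes. COX7C, a small membrane subunit, read 12.72, 12.69 and 12.72 on the vector arrays, 13.55, 13.21 and 13.28 on those of shRNA 1 and 13.21, 13.38 and 13.05 on those of shRNA 2. No knockdown array overlapped the vector arrays, and COX7C rose 1.48-fold (log2 difference 0.56, SE 0.126, limma adjusted p = 0.0197). COX4I1, the regulatory subunit made in most tissues, differed by 0.21 (SE 0.101, adjusted p = 0.182) and COX6B1, on the cytochrome c side, by 0.27 (SE 0.161, adjusted p = 0.279), each with all knockdown arrays above vector. COX8A differed by -0.18.

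COX6A1, the liver-type form of subunit VIa, did not follow the labels. Its single probe (ILMN_1783636) read 11.80, 11.76 and 11.76 on the vector arrays, 11.72, 7.54 and 11.72 on those of shRNA 1 and 7.43, 11.74 and 8.23 on those of shRNA 2. In percent of the vector mean the shRNA 1 arrays held 96.3, 5.31 and 96.8, and the shRNA 2 arrays 4.94, 97.6 and 8.60. The gene was thus near the vector level on 3 knockdown arrays and between 4.94% and 8.60% of it on the other three, shRNA 1 replicate 2 and shRNA 2 replicates 1 and 3. On each of these 3 arrays it had the lowest difference from vector of all 12498 genes (rank 1 from the lowest), while on the others its rank from the lowest was 5325 to 5450.

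The raw signals of this probe, before any correction, were 3691.2, 3823.5 and 3687.1 on the vector arrays, 3312.1, 301.1 and 3112.2 on those of shRNA 1 and 255, 3449.4 and 393.2 on those of shRNA 2. All 9 were detected above background. The split ran across both labels, and the fit gave a log2 difference of -2.04 with an SE of 1.13 (limma adjusted p = 0.253), not a call. On 7 arrays shRNA 1 minus vector was -0.05 (adjusted p = 0.864) and shRNA 2 minus vector was -3.94 (SE 0.207, limma adjusted p = 6.7e-05). If the arrays kept were those with exchanged labels, the 2 values would trade places. Which shRNA the low arrays carried, and whether the probe or the transcript differed, was not tested.

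**Figure D3:**
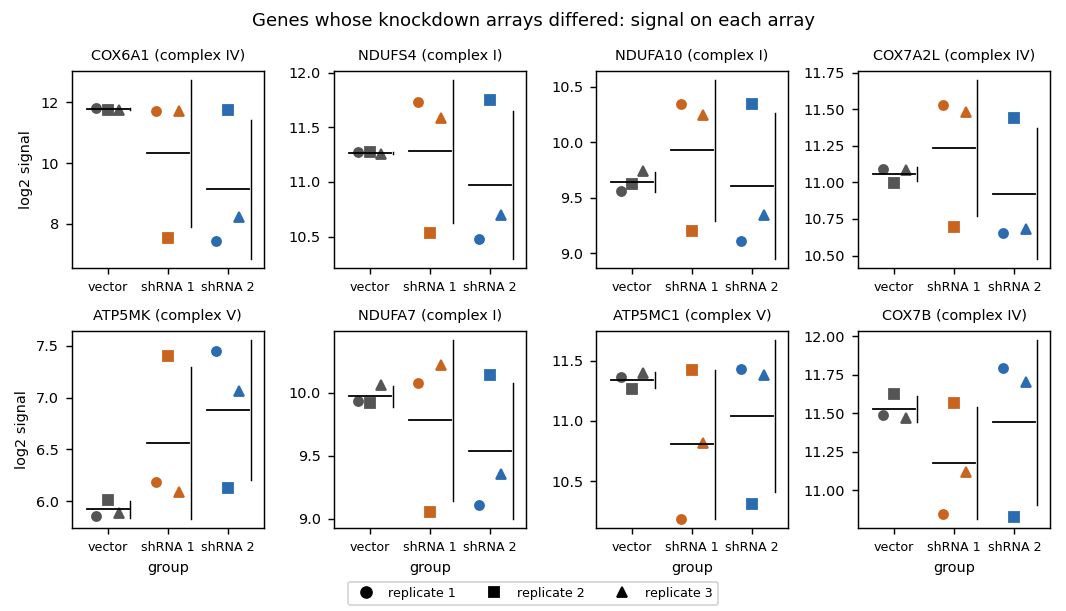
Log2 level of COX6A1 and other respiratory genes whose knockdown arrays divide, on each of the 9 arrays, by group and replicate number (horizontal lines, group means; vertical lines, 1 SD either way). The genes plotted were picked after their values were seen. For each of them the point of shRNA 1 replicate 2 lies with shRNA 2 replicates 1 and 3. That of shRNA 2 replicate 2 lies with shRNA 1 replicates 1 and 3. NDUFS1, not plotted, departed from this, with shRNA 2 replicate 2 at 5.71 near the other shRNA 2 arrays (6.04 and 5.80).

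The tissue-restricted paralogs of complex IV were dim. COX4I2, COX6A2, COX6B2, COX7A1, COX7B2 and COX8C were each detected on 0 arrays, so COX6A2, the muscle-type form of subunit VIa, was not detected on the arrays low in COX6A1 either. COX7A2, the liver-type partner of COX7A1, differed by -0.11 and COX7A2L by 0.02, with neither called. COX7B differed by -0.22, reading 10.85 and 11.11 on shRNA 1 replicates 1 and 3 and 10.82 on shRNA 2 replicate 2, against 11.57 on shRNA 1 replicate 2 and 11.80 and 11.70 on shRNA 2 replicates 1 and 3. Its low arrays were those on which COX6A1 was near the vector level.

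In ATP synthase 2 of 18 genes rose (11.1%) and 0 fell, with a median of 0.08, beside 8.54% and 8.09% of all genes. ATP5F1E, the epsilon subunit of the catalytic F1 part, read 9.64, 9.67 and 9.80 on the vector arrays, 10.24, 10.08 and 10.02 on those of shRNA 1 and 10.09, 10.18 and 10.04 on those of shRNA 2. It rose 1.32-fold (log2 difference 0.40, SE 0.110, limma adjusted p = 0.0381) with no overlap. The genes of the catalytic alpha and beta subunits, ATP5F1A and ATP5F1B, differed by 0.24 and 0.06 and were not called. Those of the central stalk subunits gamma and delta, ATP5F1C and ATP5F1D, differed by 0.26 and -0.04, also without a call.

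The c ring of the membrane part is made of a single protein encoded by 3 genes, of which 1 was called. ATP5MC3 read 7.36, 7.43 and 7.60 on the vector arrays, 7.94, 8.14 and 7.99 on those of shRNA 1 and 7.63, 7.90 and 7.71 on those of shRNA 2. It rose 1.34-fold (log2 difference 0.42, SE 0.120, limma adjusted p = 0.0455), but its lowest knockdown array lay only 0.03 above its highest vector array, and the call was lost when any 1 of the 9 arrays was left out. Over all alternatives its difference lay between 0.25 and 0.49. ATP5MC2 differed by -0.04 (adjusted p = 0.843). ATP5MC1 differed by -0.42 (SE 0.317, adjusted p = 0.402) and was split, with 10.18, 11.42 and 10.82 on the shRNA 1 arrays and 11.43, 10.31 and 11.39 on the shRNA 2 arrays against 11.36, 11.27 and 11.40 with vector, and its second kept probe gave 0.12.

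The stalk genes ATP5PD, ATP5PF and ATP5PO differed by 0.35, 0.31 and 0.33 and were called on 7 arrays but not on 9. By their brightest probes all knockdown arrays lay above vector. Another kept probe overlapped for ATP5PD, with 12.03 on shRNA 2 replicate 3 and 12.06 on vector replicate 2. The same held for ATP5PF, with 12.50 on shRNA 1 replicate 2 and 12.54 on vector replicate 3. ATP5PB, the peripheral stalk b subunit, differed by -0.36 (adjusted p = 0.333). ATP5MK, a small subunit of the membrane part linked to dimers of the enzyme, had the highest difference of all 74 genes, 0.80, without a call (SE 0.354, adjusted p = 0.159). It read 5.85, 6.01 and 5.89 on the vector arrays, 6.19, 7.40 and 6.08 on those of shRNA 1 and 7.45, 6.13 and 7.06 on those of shRNA 2. Its 3 high arrays were those low in COX6A1. The inhibitor ATP5IF1 differed by -0.12, with probes of opposite sign, as also found for ATP5MG, NDUFV3 and UQCRH.

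**Figure D4:**
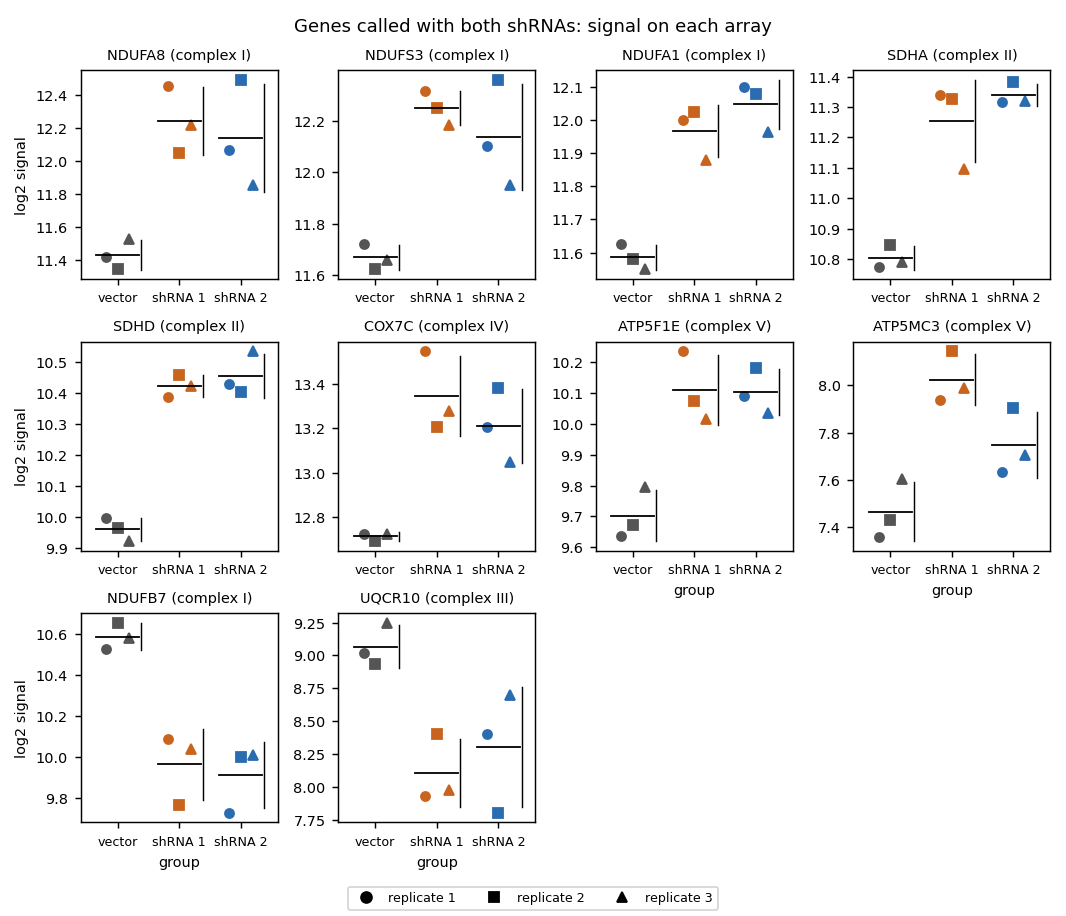
Log2 level of the 10 respiratory genes called with both shRNAs against vector, on each of the 9 arrays, as points by group (horizontal lines, group means; vertical lines, 1 SD either way). For the 8 genes that rose, every knockdown point lies above every vector point, and for NDUFB7 and UQCR10 every knockdown point lies below.

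Each shRNA was also set against the same 3 vector arrays, so these comparisons share their controls. With shRNA 1, 5 of 74 genes rose (6.76%; 5.58% of all genes) and 2 fell (2.70%; 5.56% of all genes; 11.1% in either direction), with a median of 0.17. With shRNA 2, 3 rose (4.05%; 4.60% of all genes) and 1 fell (1.35%; 4.08% of all genes; 8.68% in either direction), with a median of 0.11. NDUFA8, NDUFS3, COX7C, ATP5MC3 and SDHD rose with shRNA 1, and SDHD, SDHA and NDUFA1 with shRNA 2. NDUFB7 fell with both, with differences of -0.62 (SE 0.146, limma adjusted p = 0.0328) and -0.67 (SE 0.146, adjusted p = 0.0277), and UQCR10 was called with shRNA 1 (-0.96, SE 0.243, adjusted p = 0.0392; -0.76 with shRNA 2, adjusted p = 0.0863). Without any single vector array all of these calls were lost. With shRNA 1, 0 genes were called without shRNA 1 replicate 1 or 3, 4 rose and 1 fell without shRNA 1 replicate 2, and 2 rose and 1 fell without shRNA 2 replicate 1. With shRNA 2, 0 rose without shRNA 2 replicate 1 or 2, and 5 rose without shRNA 1 replicate 2. Without shRNA 2 replicate 3 or shRNA 1 replicate 1 or 3, 1 rose with shRNA 2. As for genes lower with shRNA 2, 0 fell without shRNA 2 replicate 1 and 2 fell without shRNA 2 replicate 3. Counts over all genes were not taken for these single-shRNA fits without 1 array, so they cannot be set against a background. Limma called 0 of 74 genes between shRNA 2 and shRNA 1, and 0 of 12498 overall (0%). At an unadjusted p under 0.05 these counts were 1 (1.35%) and 96 (0.768%).

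On 7 arrays the labelled shRNAs did differ. The fit then gave 26 higher (35.1%; 23.4% of all genes) and 5 lower (6.76%; 20.5%; 43.9% in either direction) with shRNA 1, and 11 higher (14.9%; 17.3%) and 12 lower (16.2%; 18.1%; 35.4% in either direction) with shRNA 2. Between the shRNAs 22 of 74 genes (29.7%; 21.9% of all genes) were lower with shRNA 2 and 7 (9.46%; 19.3%; 41.2% in either direction) were higher, with a median of -0.20 beside -0.01 over all genes. Against the shared vector arrays 7 genes were higher with each shRNA and 2 lower with each. The 3 genes NDUFA10, NDUFS4 and COX7A2L were higher with shRNA 1 and lower with shRNA 2, and 0 genes were the reverse. If the kept arrays carried exchanged labels, these counts would trade places between the shRNAs.

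NDUFS4, an accessory subunit that stabilises the NADH-oxidising module, shows this pattern; it was picked after its values were seen. It read 11.27, 11.27 and 11.26 on the vector arrays, 11.73, 10.53 and 11.59 on those of shRNA 1 and 10.48, 11.75 and 10.69 on those of shRNA 2. The vector arrays thus lay between 2 sets of knockdown arrays, each of mixed label. NDUFA10, an accessory subunit related to nucleoside kinases, read 9.56, 9.62 and 9.74 on the vector arrays, 10.34, 9.20 and 10.25 on those of shRNA 1 and 9.11, 10.35 and 9.35 on those of shRNA 2. Neither was called on 9 arrays (NDUFS4 -0.14, adjusted p = 0.812; NDUFA10 0.12, adjusted p = 0.829), with SEs of 0.334 and 0.326.

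The median range of a respiratory gene was 0.513 over the 6 knockdown arrays and 0.119 over the 3 vector arrays. Over all genes these medians were 0.735 and 0.207. A range over 6 arrays tends to exceed one over 3 at equal spread, so the 2 ranges are not like measures. In 8 genes the knockdown range passed 1: COX6A1, ATP5MK, NDUFS4, ATP5MC1, NDUFA10, NDUFA7, UQCRB and NDUFS1. Set per array, the median respiratory gene lay 0.27, 0.10 and 0.22 above the vector mean with shRNA 1 replicates 1, 2 and 3, and 0.08, 0.25 and 0.06 with shRNA 2. The 3 highest arrays were shRNA 1 replicates 1 and 3 and shRNA 2 replicate 2.

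**Figure D5:**
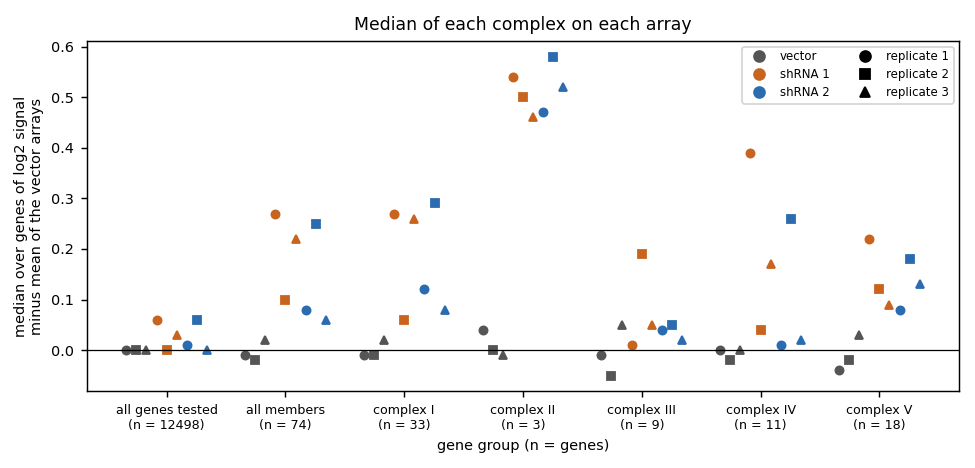
Median log2 level minus the vector mean of the tested genes of each complex, on each of the 9 arrays. The median of complex II, of only 3 genes, lies at 0.46 to 0.58 on all 6 knockdown arrays. It hides the split of SDHC, at -0.01 on shRNA 1 replicate 2 and -0.11 and -0.01 on shRNA 2 replicates 1 and 3. Complex I (33 genes) runs from 0.06 to 0.29.

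Genes that work beside the subunits were counted from lists of the pathway. Of 49 tested assembly factors, which build the complexes but are not part of them, 2 rose (4.08%) and 1 fell (2.04%), with a median of 0.13, beside 8.54% and 8.09% of all genes. COX20, which helps insert a mitochondrially encoded core subunit of complex IV, read 9.07, 9.11 and 9.06 on the vector arrays, 9.76, 10.31 and 9.74 on those of shRNA 1 and 10.11, 9.91 and 9.91 on those of shRNA 2, a 1.83-fold rise (log2 difference 0.88, SE 0.151, limma adjusted p = 0.0082). ATPAF1, a chaperone of the F1 part of ATP synthase, rose 1.79-fold (0.84, SE 0.145, adjusted p = 0.0084). UQCC3, an assembly factor of complex III, fell (log2 difference -0.88, SE 0.179, limma adjusted p = 0.0144), and for each of these 3 genes the knockdown and vector arrays did not overlap. BCS1L, which installs the iron-sulfur protein of complex III, was also lower on every knockdown array but divided them. It read 8.65, 8.85 and 8.74 on the vector arrays, 6.62, 8.50 and 6.69 on those of shRNA 1 and 8.33, 7.01 and 8.60 on those of shRNA 2, and was not called on 9 arrays (-1.13, SE 0.475, adjusted p = 0.142); it was picked after its values were seen.

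Of 18 tested genes for coenzyme Q synthesis and electron carriers 3 rose (16.7%) and 0 fell, with a median of 0.18, where 8.54% of all genes rose and 8.09% fell; no test was made of this share. ETFDH, which feeds electrons from fatty acid oxidation into ubiquinone, read 8.67, 8.62 and 8.55 on the vector arrays, 10.19, 9.33 and 9.86 on those of shRNA 1 and 9.42, 10.17 and 9.12 on those of shRNA 2. It rose 2.10-fold (log2 difference 1.07, SE 0.254, limma adjusted p = 0.0245), with every knockdown array above every vector array. COQ10B rose by 0.69 and COQ5, a methyltransferase of ubiquinone synthesis, by 0.46 on the log2 scale. Of 5 tested genes listed as other subunits and regulators 2 rose, among them HIGD1A, which is known to bind complexes III and IV (0.67, SE 0.124, limma adjusted p = 0.0103), and 0 fell, a list too short to set against the 8.54% and 8.09% of all genes. The list took in EMC8 by its other symbol COX4NB, which is not a respiratory subunit, so the count is not of respiratory genes alone.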

How the data were processed

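RNA from 9 BON-1 samples was hybridised to Illumina HumanHT-12 v4 BeadChips in 1 colour, per the labels' protocols. The deposited signal intensity of 47231 probes came with no background correction and no normalization, as the file headers and the values show. Each deposited signal has a detection p-value beside it. The submitters' processing notes name GenomeStudio. The authors' value table, linear intensity of 47219 probes with column medians of 7.93 to 7.96 and values from -23.85 to 26422 in every column, was an alternative; its scaling and centring are not given in the sources at hand.

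In limma 3.58.1 (R 4.3.3), background was corrected with nec from the detection p-values (offset 16), followed by log2 and then quantile normalization. The 22011 probes whose detection p was under 0.05 on 3 or more arrays were used, named from the platform annotation (30108 probes with 1 symbol, 8 with several, 17115 not listed; 30069 matched RefSeq gene identifiers), and the kept probe of highest mean represented each gene (12498 genes). The model had a mean for each group over all 9 arrays (lmFit, eBayes), and p-values were adjusted over all genes. Only this fit was tested on simulated data, not the background, scaling, filter or probe steps. The simulated noise was independent between arrays and did not hold the split of the knockdown arrays across labels. The number of arrays limits the precision.

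The members and lists were chosen with earlier results of these data known. Genes were named by rule: those called, the highest and lowest of each complex, the 4 that differed most between shRNAs, the paralog pairs, all SDH genes with a probe, and called genes of the other lists; other genes named were picked after their values were seen. Alternatives were other background steps, scalings, filters, probe rules, eBayes options, array weights, only the compared groups, a replicate block, leaving out each array, and 7 arrays. The slide was not used, since the columns do not give it.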

Additional observations from a re-analysis of the deposited data

How the results depend on the processing

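With 3 arrays a group, precision was limited, and dim genes had understated differences. With both shRNAs against vector, the 8 respiratory genes higher became 14 with no background correction, 1 with median centring, 22 with array weights and 16 on 7 arrays, and the 2 lower became 4 with array weights and 4 on 7 arrays. With shRNA 1 the 5 higher became 9 with no background correction, 8 with an offset of 50, 0 with median centring, 3 with cyclic loess, 8 with no filter on dim probes, 31 with array weights and 26 on 7 arrays, and the 2 lower became 5 with array weights and 5 on 7 arrays. With shRNA 2 the 3 higher became 7 with no background correction, 7 with an offset of 50, 0 with median centring, 6 with trend and robust eBayes, 12 with array weights and 11 on 7 arrays, and the 1 lower became 2 with the mean of the kept probes, 10 with array weights and 12 on 7 arrays. Between the shRNAs, the 0 higher and 0 lower became 6 and 16 with array weights, and 7 and 22 on 7 arrays; the median of -0.04 became -0.15 and -0.20. Median centring moved the median of the members to -0.01 with both shRNAs, 0.00 with shRNA 1 and -0.03 with shRNA 2, while it moved that of all genes to -0.08, -0.07 and -0.09, and split the calls over all genes into 613 higher and 1432 lower (1067 and 1011 with quantile normalization). Array weights called 5587 genes in all with both shRNAs and the fit on 7 arrays 5152, against 2078. With shRNA 1 the higher genes over all were 793 with no background correction, 804 with an offset of 50, 370 with median centring and 630 with cyclic loess, against 698. With shRNA 2 they were 673, 681, 314 and 537, against 575. Single-shRNA counts over all genes were not taken for array weights, filters, probe rules and eBayes options, so the members' counts there have no background. Leaving out 1 array at a time gave 0 to 8 higher and 0 to 2 lower with both shRNAs, 0 to 6 and 0 to 2 with shRNA 1, 0 to 5 and 0 to 2 with shRNA 2, and 0 and 0 between them, with medians of 0.11 to 0.18, 0.12 to 0.24, 0.07 to 0.15 and -0.12 to -0.02. Without any single vector array 0 of the 10 called genes were called, and 6 to 9 of them were called without any single shRNA array. RABL6 stayed between -2.06 and -1.86 without 1 array. Of the 10 called genes, 0 reversed under any of these settings; 10 were called with no background correction, an offset of 50, other filters, the mean of the kept probes, array weights and 7 arrays, 9 with the authors' value table, 8 with cyclic loess and 3 with median centring. Reversed differences were all of genes not called: ATP5MC2 (0.00 with array weights, -0.10 to 0.02 without 1 array), COX7A2 (-0.24 to 0.00 without 1 array), NDUFA10 (-0.03 with median centring, -0.06 to 0.31 without 1 array), SDHC (-0.25 with the probe of largest interquartile range) and COX7A2L (-0.14 with median centring, -0.02 with cyclic loess, -0.11 to 0.16 without 1 array). The cause was not tested. The labels number the replicates 1 to 3 in each group, but deviations from the group means of same-numbered arrays correlated at -0.89 to 0.15 (9 pairs), against -0.73 to 0.87 for other pairs (18). Between vector and knockdown arrays alone, same-numbered pairs correlated at 0.03 to 0.15 and others at -0.08 to -0.01, a small difference in one direction; between the shRNAs same-numbered pairs were at -0.89 to -0.24. Not every pair passed 0.1, so the numbers were not taken as a pairing, but this cut cannot decide the question. Deviations sum to 0 within each group of 3 arrays, and those of the shRNA arrays follow the split across labels. With the replicate block the genes higher and lower were 0 and 1 with both shRNAs, 0 and 0 with shRNA 1, and 0 and 0 with shRNA 2. Slide as a block was not run, since the columns do not give it.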

Other observations

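Genes that supply the respiratory chain or maintain mitochondria were also counted with both shRNAs against vector, where 8.54% of all genes rose and 8.09% fell. Of 21 tested genes of the citric acid cycle and pyruvate dehydrogenase 2 rose (9.52%) and 0 fell, with a median log2 difference of 0.09. PDHB, the beta subunit of the pyruvate dehydrogenase component that decarboxylates pyruvate, read 11.80, 11.73 and 11.56 on the vector arrays, 12.14, 12.12 and 12.15 on those of shRNA 1 and 12.15, 12.09 and 12.11 on those of shRNA 2. Its 6 knockdown arrays lay close together and above all vector arrays, a 1.35-fold rise (log2 difference 0.43, SE 0.104, limma adjusted p = 0.0262). SUCLG1, a subunit of succinyl-CoA ligase, which makes the succinate that complex II oxidises, rose by 0.41 (SE 0.115, limma adjusted p = 0.0434).

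Of 22 tested genes of mitochondrial DNA maintenance and biogenesis 0 rose and 1 fell, with a median of 0.15. The gene that fell was PPRC1, a coactivator related to PGC-1 alpha that is known to act with NRF1. It read 9.99, 10.03 and 9.80 on the vector arrays, 9.36, 9.21 and 9.07 on those of shRNA 1 and 9.22, 9.46 and 8.90 on those of shRNA 2 (log2 difference -0.74, SE 0.149, limma adjusted p = 0.0140). Every knockdown array lay below every vector array. Of 12 tested adenine nucleotide and phosphate carriers and porins 0 rose and 0 fell, with a median of 0.11.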
